A study of Mus musculus with 12 samples.

Results

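Kinesins are motor proteins that use ATP to move along microtubules or to take microtubules apart, and the genes named Kif encode them. The genes described here are every gene whose symbol begins with Kif followed by a digit or by c. That rule found 44 of the 35652 genes listed for the cultured and fetal libraries. Of these, 42 encode motors, and they were sorted by textbook role into 14 mitotic, 17 transport and 11 other kinesins. The remaining members are not motors: Kif1bp encodes a KIF1-binding protein, and Kif16bos is an opposite-strand transcript beside Kif16b. All 44 were found in the P7 tables by Entrez ID, but only 42 by symbol, since Kif28 and Kif1bp carry other names there.

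The study measured polyA RNA with SC3-seq, which counts reads at the 3′ ends of transcripts, in 12 mouse libraries, 2 in each of 6 groups. The cultured groups were germline stem cells (GSCs), a culture model of the spermatogonial stem cell, of the line Acrosin-EGFP; beta-Actin-EGFP (AAG): wild type (WT), Stag3 KO line 1 (KO1) and Stag3 KO line 2 (KO2). Stag3 encodes the meiotic STAG subunit of cohesin. The other groups were testis germ cells of genotype Vasa-RFPTg/0 from fetuses on day 16 or 17 of gestation (E16 and E17) and from pups on day 7 after birth (P7); the labels give no promoter beyond the transgene's name and do not say how the cells were sorted. Nothing in the labels says that libraries of a group came from separate animals or cultures, so p-values measure the spread between libraries, which may be technical. Each knockout line is described by its own number only, and whether a line is 1 clone is not given in the sources used here.

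Total counts ranged from 1938644 to 4596607 per library, and levels are given as reads per 1000000 non-mitochondrial gene reads (RPM). At that depth 3 reads, taken as the floor, correspond to 0.748 to 1.73 RPM. The germ cell genes Ddx4, Dazl and Mael were detected in all 12 libraries, Ddx4 at 415 to 815 RPM. Other germ cell markers were low in some groups. Nanos2 was at most 1.49 RPM and Nanos3 at most 4.71 RPM in the fetal libraries, and Dppa3 at most 4.72 RPM in GSCs. Stag3 itself was read at 385 and 420 RPM in WT, 295 and 304 RPM in KO1, and 137 and 152 RPM in KO2, so its 3′ reads were lower but not absent in the libraries labelled knockout; whether these reads lie outside the altered part of the gene is not given in the sources used here. Spike-in (ERCC) reads were 2.80 to 3.41% of counts in GSCs, 1.22 to 1.52% at E16, 0.194 to 0.231% at E17 and 4.69 to 5.85% at P7. The P7 tables were also made on another gene list (34896 genes, 31685 of them shared), so stage and table cannot be told apart in any comparison with P7.

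Mitotic kinesins build and move the spindle. Kif11 slides antiparallel microtubules apart, Kif15 assists it, Kif4 and Kif22 act on chromosome arms, Kif18a and Kif18b act on microtubule plus ends, Kif2c depolymerizes microtubules at centromeres, and Kif20a and Kif23 organize the central spindle for cytokinesis. Transport kinesins carry cargo: Kif5 motors and Kif1 motors move organelles and vesicles, and Kif3 motors also drive transport inside cilia. In mice, fetal male germ cells leave the cell cycle in the fetal testis and divide again after birth, while cultured GSCs proliferate.

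Mitotic kinesin genes were lower in fetal germ cells than in WT GSCs and close to the GSC level again at P7, when levels are taken relative to other genes. The summed level of the 14 mitotic genes was 714 ± 25.2 RPM (SD, n = 2) in WT GSCs, 208 ± 27.2 RPM at E16, 267 ± 13.1 RPM at E17 and 653 ± 45.5 RPM at P7. In the comparison of the fetal stages (mean of E16 and E17) with WT GSCs, 10 of the 12 mitotic genes tested fell and none rose, by edgeR's quasi-likelihood test at an adjusted p under 0.05. Of all genes tested in that comparison, 32.3% were lower and 41.9% were higher. The median log2 fold change was -2.01 for mitotic kinesins and 0.23 for all genes. These directions hold relative to the other genes only. With spike-in totals as size factors the median of all genes moved to 2.87, and 14505 of all 15827 genes tested were called higher. Then 6 mitotic genes were called higher and none lower, and 10 of the 12 still lay below the median of all genes. Bulk libraries cannot tell fewer cells of a kind from less RNA per cell.

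**Figure D1:**
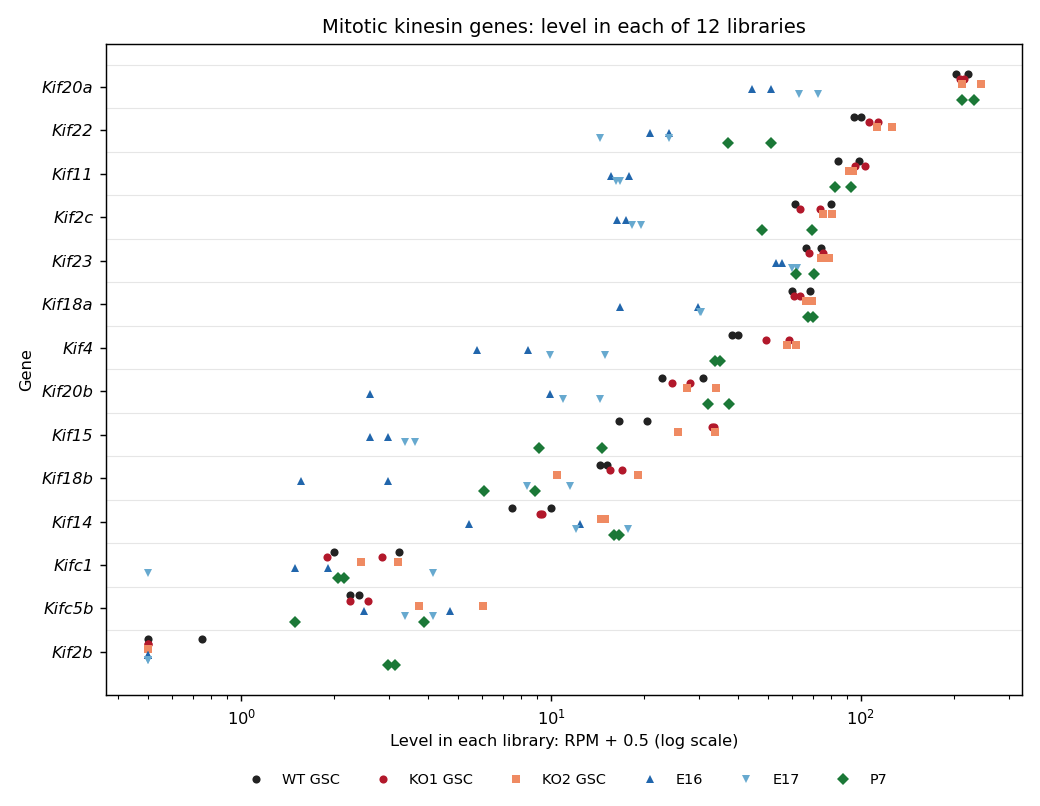
Level of each of the 14 mitotic kinesin genes (rows, ordered by WT GSC mean) in each of 12 libraries, in RPM plus 0.5 on a log axis; each point is 1 library. For Kif11 all 4 fetal libraries lie between 15.1 and 17.4 RPM and all others above 81 RPM, while for Kif23 all 12 libraries lie between 52.8 and 78.5 RPM.

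Kif11 (chr19:37376382-37421863, GRCm38.p6) was read at 84.1 and 98.4 RPM in WT GSCs, 17.4 and 15.1 RPM at E16, 16.2 and 15.7 RPM at E17, and 81.9 and 92.1 RPM at P7. The 4 fetal libraries lay below all others, and P7 fell within the range of the GSC libraries or just under it. Its log2 fold change was -2.64 (SE 0.16, edgeR adjusted p = 2.22e-17) in fetal cells against WT GSCs. At P7 it was 2.602 higher than at E17 on the log2 scale (SE 0.23, adjusted p = 1.97e-07).

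Kif20a (chr18:34624624-34633277) was read at 203 and 221 RPM in WT GSCs, 50.7 and 44.0 RPM at E16, 62.4 and 72.2 RPM at E17, and 212 and 232 RPM at P7. Fetal libraries again stood apart below the rest. The fitted log2 fold change was -2.05 (SE 0.11, adjusted p = 1.41e-18) in fetal cells against WT GSCs and 1.87 (SE 0.16, adjusted p = 1.24e-07) at P7 against E17. The gene overlaps Brd8 and Cdc23, and whether counting used strand is not given in the sources used here, so reads of overlapping genes cannot be told apart. The same limit holds for 29 of the 42 motor genes, Kif11, Kif15, Kif4, Kif3a and Kif5b among them.

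Kif2c (chr4:117159633-117182624) gave 79.5 and 60.8 RPM in WT GSCs, 16.9 and 15.8 RPM at E16, 19.1 and 17.8 RPM at E17, and 47.3 and 68.9 RPM at P7. The P7 libraries differed from each other by more than the 4 fetal libraries did, yet both lay above them. Its log2 fold change was -2.15 (SE 0.18, adjusted p = 4.89e-13) in fetal cells against WT GSCs and 1.82 (SE 0.27, adjusted p = 2.95e-05) from E17 to P7.

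Kif23 (chr9:61917277-61946810), the motor subunit of centralspindlin, was read at 66.2 and 73.8 RPM in WT GSCs, 55.2 and 52.8 RPM at E16, 59.5 and 61.8 RPM at E17, and 61.2 and 69.9 RPM at P7. All fetal libraries were below the WT libraries, but by far less than for Kif11. The log2 fold change was -0.43 (SE 0.14, adjusted p = 0.00601) in fetal cells against WT GSCs. That call was lost with DESeq2 (-0.23, adjusted p = 0.152) and without WT replicate 2 (-0.38, adjusted p = 0.0604). The fitted difference of 0.27 (SE 0.18) between P7 and E17 had an adjusted p of 0.207.

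Kif15, Kif22 and Kif4 also fell in fetal cells. Kif15 was read at 16.1 and 19.9 RPM in WT GSCs, from 2.11 to 3.14 RPM in the 4 fetal libraries, and at 14.1 and 8.65 RPM at P7, with a fetal log2 fold change of -2.90 (SE 0.33). Kif22 was read at 99.9 and 94.4 RPM in WT GSCs, 20.4 and 23.6 RPM at E16, 13.9 and 23.5 RPM at E17, and 36.8 and 50.7 RPM at P7, with -2.38 (SE 0.16). Kif4 was read at 37.8 and 39.6 RPM in WT GSCs, 7.95 and 5.28 RPM at E16, 14.4 and 9.42 RPM at E17, and 34.5 and 33.4 RPM at P7, with -2.28 (SE 0.21). In each of these the fetal libraries did not overlap the WT GSC or P7 libraries. Kif18b, Kif20b and Kif18a had log2 fold changes of -1.98, -1.86 and -1.45. The group means of Kif18b were ordered otherwise, at 14.3 RPM in WT GSCs, 1.77 RPM at E16, 9.42 RPM at E17 and 6.97 RPM at P7.

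The mitotic members that did not pass in the fetal comparison were Kif14 (0.25, SE 0.33), a cytokinesis motor read at 8.25 ± 1.80 RPM (n = 2) in WT GSCs and 11.4 ± 5.05 RPM (n = 4) in fetal cells, and Kifc5b (0.69, SE 0.66). Kifc1 and Kif2b were too low to be tested. Kifc1 and Kifc5b are near-identical copies whose reads the counting could split, so their levels, at most 3.66 RPM for Kifc1 and 5.55 RPM for Kifc5b, are uncertain. Kif2b had 16 reads over both P7 libraries and none at E17, which makes it at least 1.55-fold higher at P7 with 3 reads per library as the floor.

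From E17 to P7, 8 of the 11 mitotic kinesins tested rose and none fell, against 30.2% of all genes higher and 37.8% lower. The median log2 fold change was 1.65, and that of all genes was -0.13. Kif15 rose by 2.05 (SE 0.56, adjusted p = 0.00471), but not without P7 replicate 1 (1.69, adjusted p = 0.0867). Kif4, Kif20b, Kif22 and Kif18a rose by 1.67, 1.65, 1.37 and 1.34. Kif14 (0.28), Kif23 (0.27) and Kif18b (-0.27) did not pass. With spike-in totals the median of all genes was -4.81, and 14523 of 14776 genes tested were called, 37 of them higher. All 11 mitotic kinesins were then called lower, 10 of them above that median.

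Against WT GSCs, P7 cells had 3 of 12 mitotic kinesins lower and none higher, where 15.0% of all genes were lower and 16% higher. The 3 were Kif22 (-1.28, SE 0.17, adjusted p = 3.39e-07), Kif18b (-1.16, SE 0.38, adjusted p = 0.0166) and Kif15 (-0.80, SE 0.30, adjusted p = 0.0376). With DESeq2 2 were lower, and Kif15 did not pass (-0.80, adjusted p = 0.0659). Kif18b was read at 13.9 and 14.7 RPM in WT GSCs and 5.59 and 8.35 RPM at P7. The calls of Kif18b and Kif15 were lost without either WT replicate, and also without P7 replicate 1 for Kif18b (adjusted p = 0.161) and P7 replicate 2 for Kif15 (adjusted p = 0.331). Without WT replicate 2 or P7 replicate 2, Kif2c passed as lower, at -0.60 and -0.73, against -0.40 (adjusted p = 0.0938) with all libraries. Kif11 (-0.20, SE 0.15), Kif20a (-0.07, SE 0.12) and Kif23 (-0.23, SE 0.16) did not pass. The P7 comparisons share the E17 or the WT libraries with the fetal comparison, so their values are not independent of it.

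Between E16 and E17 none of the 11 mitotic and none of the 17 transport kinesins tested passed by edgeR, where 1.64% of all genes were higher and 4.96% lower. At an unadjusted p under 0.05, 1 mitotic kinesin was higher and 2 transport kinesins were lower, and DESeq2 called none of the 28. The fitted values of Kif11, Kif2c, Kif23 and Kif20a were -0.36 (SE 0.27), -0.17 (SE 0.30), -0.17 (SE 0.19) and 0.18 (SE 0.17). Mean levels of Kif2c (16.4 RPM at E16, 18.4 RPM at E17) and Kif23 (54.0 and 60.6 RPM) were higher at E17 although their fitted values are negative, since the fit rescales the libraries, by a median of -0.33 on the log2 scale over the members, so no direction is read from them. The mitotic member with the largest fitted difference was Kif18b (2.12, SE 0.65, adjusted p = 0.066), at 2.48 and 1.06 RPM at E16 and 10.98 and 7.85 RPM at E17; it was singled out after its values were seen. With E16 replicate 1 or E16 replicate 2 left out, some of these kinesins were called, and more of all genes were called as well.

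Genes that work with the mitotic motors at kinetochores, the spindle and the midbody were listed separately (32 genes, such as the chromosomal passenger genes Aurkb and Birc5). In fetal cells 31 of 32 fell against WT GSCs, where 32.3% of all genes were lower. The median log2 fold change was -1.77, and that of all genes was 0.23. Spc24, a kinetochore subunit, averaged 2.56 RPM in fetal cells and 37.1 RPM in WT GSCs, a log2 fold change of -4.02 (SE 0.28). Aurkb, the passenger kinase, averaged 9.58 against 93.8 RPM (-3.44, SE 0.17), and Birc5, which targets it, 9.91 against 91.7 RPM (-3.39, SE 0.19). At P7 against E17, 29 of the 32 rose and none fell, where 30.2% of all genes were higher. Spc24 rose by 4.67 (SE 0.48), Aurkb by 3.45 (SE 0.25) and Birc5 by 3.34 (SE 0.33). As for the motors, these directions turned with spike-in totals. Under them 25 of the 32 were higher in fetal cells, where 14505 of all 15827 genes tested were higher. At P7 against E17, 31 of the 32 were then lower, where 14523 of 14776 genes were called, 37 of them higher. Between E16 and E17, 1 partner rose (Prc1, by 1.47) and 5 fell, where 1.64% of all genes were higher and 4.96% lower. Among the 5 were Ndc80, Mad2l1 and Ccnb1 at -1.12, -0.76 and -0.73. Without E17 replicate 2 fewer partners were called, and fewer of all genes were called as well. Against WT GSCs at P7, 6 rose, among them Ska1 (0.85), and 12 fell, among them Top2a (-1.02). Of all genes 16% were higher and 15.0% lower there. There were fewer rises without WT replicate 2 and fewer falls without WT replicate 1, and fewer of all genes were called as well.

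The promoters of the kinesin genes were also read. Windows of 300 bases, 250 before and 50 after an annotated start, came from RefSeq (GRCm38.p6), and 13 of 14 mitotic, 11 of 17 transport and 9 of 11 other kinesins had at least 1 window. The mitotic member without a window was Kif20a. For some members, such as Kif14, Kif2c and Kif3a, the start used lies inside the listed span of the gene and not at its end. A pair of motifs known from cell cycle promoters were searched on both strands: TTTGAA, the core of the cell cycle genes homology region (CHR), and CCAAT, the box bound by NF-Y; a match of one may share an end letter with a match of the other, and such overlaps were kept. TTTGAA was found in 11 of 13 mitotic windows (84.6%), in 1 of 13 transport windows (7.69%) and in 2 of 11 other windows, against 17.9% of all 32851 windows. CCAAT was found in 9 of 13 mitotic windows, 4 of 13 transport windows and 37.4% of all windows. The pair was found in 8 mitotic windows (61.5%), in no transport window and in 6.95% of all windows. Among the 8 were Kif14 and Kifc5b, which did not pass in the fetal comparison, Kifc1, which was not tested, and Kif23, which moved little. The near-identical Kifc1 and Kifc5b count as separate windows. The part of the motifs in the levels was not tested. A match is a description of the letters and not a site, and short motifs occur in many windows.

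The 4 windows below are shown because they set a member that moved strongly and carries both motifs (Kif11) beside one that moved little and also carries both (Kif23), and a mitotic and a transport member with neither (Kif18a and Kif3c). They lie at chr19:37376132-37376431 on the plus strand, chr9:61946750-61947049 on the minus strand, chr2:109280488-109280787 on the plus strand and chr12:3364882-3365181 on the plus strand. Each reads 5′ to 3′ along the gene, with the motif letters in capitals, where TTCAAA and ATTGG are the same motifs on the opposite strand.
Kif11: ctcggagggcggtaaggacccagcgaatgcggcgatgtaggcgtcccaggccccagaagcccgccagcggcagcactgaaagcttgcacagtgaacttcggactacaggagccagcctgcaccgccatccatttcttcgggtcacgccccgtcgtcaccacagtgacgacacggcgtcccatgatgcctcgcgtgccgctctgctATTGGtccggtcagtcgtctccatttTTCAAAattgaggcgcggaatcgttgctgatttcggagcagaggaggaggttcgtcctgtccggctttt
Kif23: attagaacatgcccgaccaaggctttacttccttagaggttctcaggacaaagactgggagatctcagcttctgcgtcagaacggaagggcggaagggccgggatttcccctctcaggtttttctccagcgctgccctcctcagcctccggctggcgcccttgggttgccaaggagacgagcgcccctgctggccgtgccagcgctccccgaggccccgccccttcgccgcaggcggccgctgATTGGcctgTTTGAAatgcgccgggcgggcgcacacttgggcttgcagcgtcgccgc
Kif18a: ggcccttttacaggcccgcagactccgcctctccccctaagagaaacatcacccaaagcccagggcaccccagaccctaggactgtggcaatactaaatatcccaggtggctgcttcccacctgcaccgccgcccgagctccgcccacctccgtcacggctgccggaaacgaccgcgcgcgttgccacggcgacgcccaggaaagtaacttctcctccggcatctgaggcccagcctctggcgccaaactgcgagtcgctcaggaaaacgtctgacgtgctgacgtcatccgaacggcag
Kif3c: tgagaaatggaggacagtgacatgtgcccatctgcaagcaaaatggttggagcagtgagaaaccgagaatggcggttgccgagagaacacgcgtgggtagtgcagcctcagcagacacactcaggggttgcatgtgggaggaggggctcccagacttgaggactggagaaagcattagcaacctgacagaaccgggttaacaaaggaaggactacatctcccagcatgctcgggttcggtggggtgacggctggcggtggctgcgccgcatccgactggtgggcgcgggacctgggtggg
Counted with the annotated start as 1 and the base before it as -1, the first letters of the CCAAT and TTTGAA matches lie at -45 and -19 in Kif11, and at -7 and 3 in Kif23. Kif18a, with neither, had log2 fold changes of -1.45 in fetal cells against WT GSCs and 1.34 from E17 to P7.

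**Figure D2:**
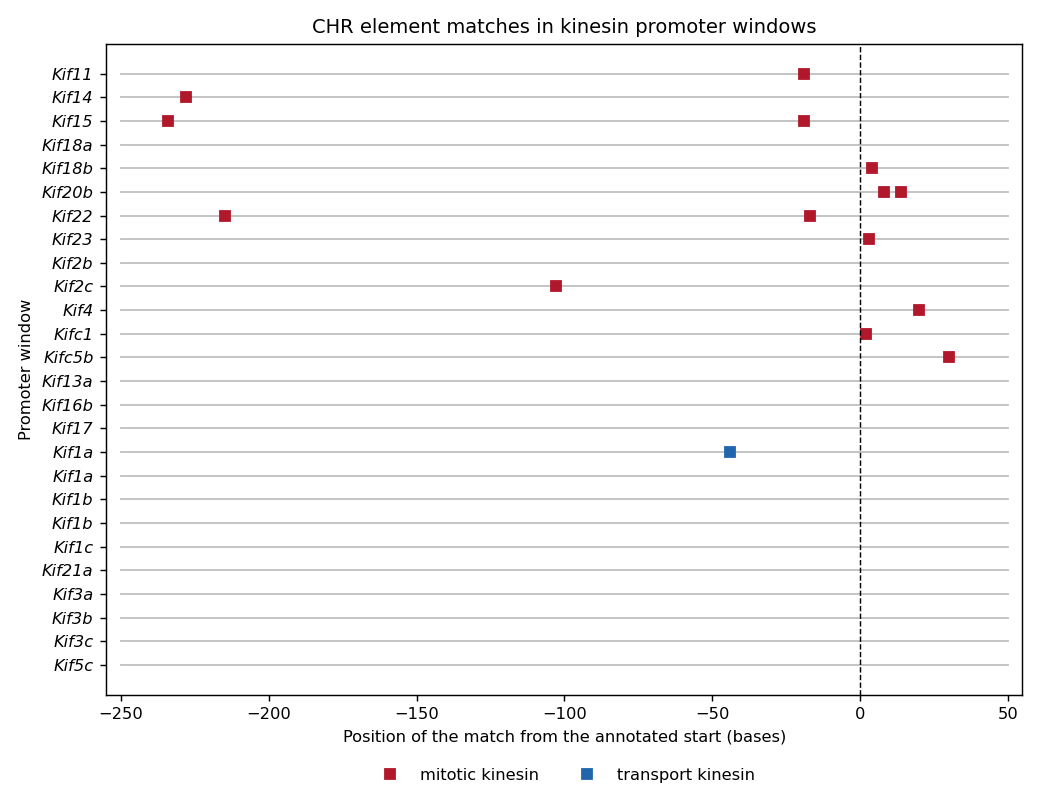
Position of each TTTGAA match (squares), in bases from the annotated start, in the 13 mitotic (red) and 13 transport (blue) kinesin windows; each grey line is 1 window from 250 bases before to 50 after the start (dashed). The matches fall in 11 mitotic windows and 1 transport window, that of Kif1a.

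Transport kinesins moved in both directions in fetal cells. Against WT GSCs 9 of 17 rose and 2 fell, where 41.9% of all genes were higher and 32.3% lower, so the share that rose was near that of all genes. The median log2 fold change was 0.35, and that of all genes was 0.23. Their summed level was 417 ± 3.12 RPM (SD, n = 2) in WT GSCs, 722 ± 0.571 RPM at E16, 869 ± 0.785 RPM at E17 and 673 ± 29.9 RPM at P7. With spike-in totals all 17 were called higher in fetal cells, as were 14505 of all 15827 genes tested. Of the 17, 9 lay above the median of all genes.

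Kifc3 (chr8:95099828-95202826), a minus-end directed motor of epithelial junctions, was read at 8.17 and 11.96 RPM in WT GSCs, 119 and 119 RPM at E16, 138 and 133 RPM at E17, and 13.5 and 10.5 RPM at P7. The fetal libraries lay far above all 8 others. Its log2 fold change was 3.51 (SE 0.22, adjusted p = 1.42e-16) in fetal cells against WT GSCs and -3.34 (SE 0.20, adjusted p = 4.37e-09) at P7 against E17. The gene overlaps other annotated genes, whose reads cannot be told apart from its own without strand.

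Kifc2 (chr15:76659784-76668196), a minus-end motor known from neurons, was read at 15.0 and 8.22 RPM in WT GSCs, 51.7 and 72.2 RPM at E16, 120 and 100 RPM at E17, and 13.5 and 8.65 RPM at P7. E17 was above E16 in every library, but the fitted difference of 0.47 (SE 0.22) had an adjusted p of 0.232. Fetal cells against WT GSCs gave 2.71 (SE 0.24, adjusted p = 1.71e-12), and P7 against E17 gave -3.16 (SE 0.27, adjusted p = 1.26e-07). It overlaps Cyhr1 and Foxh1.

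Kif1a, the axonal vesicle motor, was read at 0.817 and 0 RPM in WT GSCs, 13.9 and 16.2 RPM at E16, 16.8 and 18.8 RPM at E17, and 0.658 and 1.24 RPM at P7. It had 139 reads over the fetal libraries and 3 over the WT libraries, a depth-adjusted ratio of 41.9 with a counting interval of 14.1 to 206. At P7 against E17 its log2 fold change was -3.99 (SE 0.54, adjusted p = 1.29e-05).

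Kif13a, which carries endosomes, was read at 4.63 and 3.99 RPM in WT GSCs, 30.8 and 15.5 RPM at E16, 30.1 and 33.0 RPM at E17, and 6.91 and 10.2 RPM at P7, with a fetal log2 fold change of 2.48 (SE 0.35). Kif5a, Kif3c, Kif17, Kif13b and Kif3a rose by 2.04, 2.01, 1.46, 0.99 and 0.35 in fetal cells. The members that fell were Kif5b (-1.43) and Kif16b (-1.21). Within the Kif5 family of conventional kinesin heavy chains the members thus differed, as Kif5c had a fitted value of -0.07 (SE 0.26). Kif5a overlaps Dctn2, which fell by 1.44 in the same comparison. Kif1b, Kif21a, Kif1c, Kif3b and Kif21b did not pass, with fitted values from -0.36 to 0.04.

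**Figure D3:**
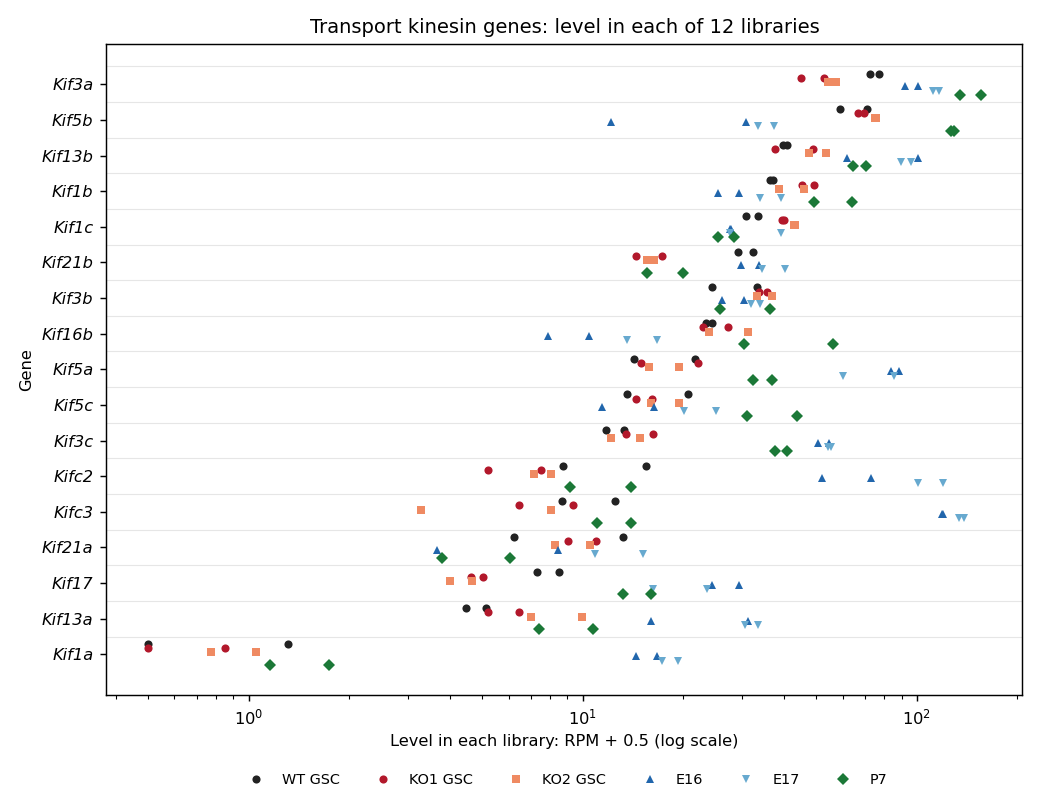
Level of each of the 17 transport kinesin genes (rows, ordered by WT GSC mean) in each of 12 libraries, in RPM plus 0.5 on a log axis; each point is 1 library. The 4 fetal libraries of Kifc3 lie between 119 and 138 RPM and the 8 others at or under 13.5 RPM, while for Kif5b the P7 libraries lie highest at 128 and 126 RPM.

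From E17 to P7, 5 of 17 transport kinesins rose and 7 fell, where 30.2% of all genes were higher and 37.8% lower. Kif5b, the widely expressed conventional kinesin, was read at 37.0 and 33.0 RPM at E17 and at 128 and 126 RPM at P7, with 58.3 and 70.3 RPM in WT GSCs and 30.3 and 11.6 RPM at E16. It rose by 2.02 (SE 0.26, adjusted p = 9.15e-06). Kif16b, Kif5c, Kif1b and Kif3a rose by 1.70, 0.89, 0.79 and 0.50. Beside Kif1a, Kifc3 and Kifc2, the genes Kif13a, Kif21a, Kif21b and Kif5a fell, with log2 fold changes of -1.72, -1.33, -0.93 and -0.92. Fewer transport kinesins rose without E17 replicate 2 or without P7 replicate 1, and fewer of all genes rose as well. With spike-in totals all 17 were called lower, where 14523 of all 14776 genes tested were called, 37 of them higher.

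Against WT GSCs, 8 of 17 transport kinesins were higher at P7 and 1 was lower, where 16% of all genes were higher and 15.0% lower. The median log2 fold change was 0.73, and that of all genes was 0.03. Kif3c, a partner of Kif3a in heterotrimeric kinesin, was read at 12.8 and 11.2 RPM in WT GSCs and 40.5 and 37.1 RPM at P7 (1.56, SE 0.23, adjusted p = 1.71e-06), with 49.98 to 54.95 RPM in the fetal libraries. Kif3a was read at 76.5 and 72.0 RPM in WT GSCs and 155 and 134 RPM at P7 (0.83, SE 0.14, adjusted p = 1.50e-05). Both had P7 libraries above the WT libraries with no overlap.

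Kif5b (0.85, SE 0.18, adjusted p = 2.61e-04) rose as well at P7 against WT GSCs. Kif5c was read at 13.1 and 20.2 RPM in WT GSCs and 30.6 and 43.3 RPM at P7 (1.02, SE 0.27, adjusted p = 0.00322). Kif5a was read at 21.2 and 13.7 RPM in WT GSCs and 31.9 and 36.5 RPM at P7 (0.84, SE 0.24, adjusted p = 0.00587). Kif16b, Kif13b and Kif1b rose by 0.73, 0.62 and 0.50. The lower member was Kif21b (-0.93, SE 0.24, adjusted p = 0.00309), a motor that also limits microtubule growth, at 31.9 and 28.7 RPM in WT GSCs and 15.1 and 19.5 RPM at P7. Calls were lost without P7 replicate 1 for Kif21b (adjusted p = 0.0615), without WT replicate 2 or P7 replicate 2 for Kif5a (0.173 and 0.0849), and without WT replicate 1 or P7 replicate 2 for Kif5c (0.0889 and 0.13). Fewer transport kinesins rose with any 1 WT or P7 library left out, and fewer of all genes were higher as well. With spike-in totals 1 rose and 3 fell, where 5618 of all 15827 genes tested were called, 909 of them higher.

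Partners of the transport motors (21 genes of kinesin light chains, dynein, dynactin and cargo adaptors) were also mixed. In fetal cells against WT GSCs, 7 of 19 tested rose and 6 fell, where 41.9% of all genes were higher and 32.3% lower, so both shares were near those of all genes. Mapk8ip1, a JIP adaptor, Dctn1, the large dynactin subunit, and Klc4, a kinesin light chain, rose by 2.07, 1.75 and 1.66. Rhot1, Dctn2 and Rhot2 fell, with -1.74, -1.44 and -0.97. Between E17 and P7, 4 rose and 8 fell, where 30.2% of all genes were higher and 37.8% lower. Dctn1 was read at a mean of 248 RPM at E17 and 30.3 RPM at P7 (-2.87, SE 0.19). DESeq2 counted 2 rises there. Dync1li1, a dynein light intermediate chain, was read at 0 RPM in both E17 libraries, at most 1.05 RPM in GSCs, and 91.1 and 80.1 RPM at P7; the part of the P7 gene list in that difference was not tested. With spike-in totals 18 of 19 partners were higher in fetal cells, as were 14505 of all 15827 genes tested. At P7 against E17, 18 were then lower, where 14523 of 14776 genes were called, 37 of them higher.

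Markers of other cell types moved with the fetal libraries. The counts below compare mean RPM of fetal and WT GSC libraries. Of all 15827 genes tested, 8754 had a fitted log2 fold change above 0 in fetal cells against WT GSCs. Summed over each list, neuron markers were 75.0 to 133 RPM in the 4 fetal libraries, 7.97 to 16.6 RPM in WT GSCs and 13.3 to 16.8 RPM at P7, with 6 of 6 higher in fetal cells than in WT GSCs. Rbfox3 alone gave 39.4 to 56.5 RPM of the fetal sums. Elavl3 was lower at E16 (0.994 and 0.704 RPM) than in WT GSCs (2.45 and 1.74 RPM). Sertoli markers were 142 to 168 RPM in fetal cells, 27.5 to 33.4 RPM in WT GSCs and 65.1 to 96.4 RPM at P7 (8 of 10 higher), with the defining Sertoli gene Amh at 0 in all 12 libraries. Clu alone gave 83.8 to 110 RPM of the fetal sums. Wt1 went the other way, at 4.47 to 7.51 RPM in fetal cells and 16.1 and 12.7 RPM in WT GSCs. Peritubular markers were 85.9 to 116 RPM against 5.98 to 9.53 RPM in WT GSCs (5 of 5 higher) and 11.5 to 21.9 RPM at P7. Fibroblast markers were 164 to 341 RPM against 87.9 to 88.0 RPM (7 of 7), endothelial markers 42.9 to 85.0 against 11.5 to 13.9 RPM (5 of 5), Leydig markers 28.8 to 41.9 against 1.91 to 2.24 RPM (5 of 5) and macrophage markers 10.2 to 16.8 against 0.817 to 0.997 RPM (6 of 6). At P7 these 4 lists were at 120 to 146, 31.5 to 31.9, 3.71 to 9.21 and 0.658 to 2.16 RPM. Of the fibroblast markers, Col1a1 and Dcn had lower means at E16 (12.9 and 2.09 RPM) than in WT GSCs (14.9 and 5.69 RPM). Erythroid markers, all 5 at 0 in GSCs, summed to 56.6 to 242 RPM in fetal cells and 11.8 to 82.5 RPM at P7. Their part in the fetal rises of Kifc3, Kifc2, Kif1a and the other transport and ciliary members was not tested.

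Markers of spermatogonia summed to 85.5 to 106 RPM in fetal cells, 580 to 609 RPM in WT GSCs and 677 to 772 RPM at P7, with none of 6 higher in fetal cells than in WT GSCs. Germ cell markers summed to 2561 to 3158 RPM in fetal cells, 3186 to 3487 RPM in WT GSCs and 3424 to 3460 RPM at P7. By gene, 5 of 8 were higher in fetal cells than in WT GSCs, and Dazl, Nanos2 and Nanos3 were lower. Dazl had means of 451 RPM at E16, 616 RPM at E17 and 1661 RPM in WT GSCs.

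**Figure D4:**
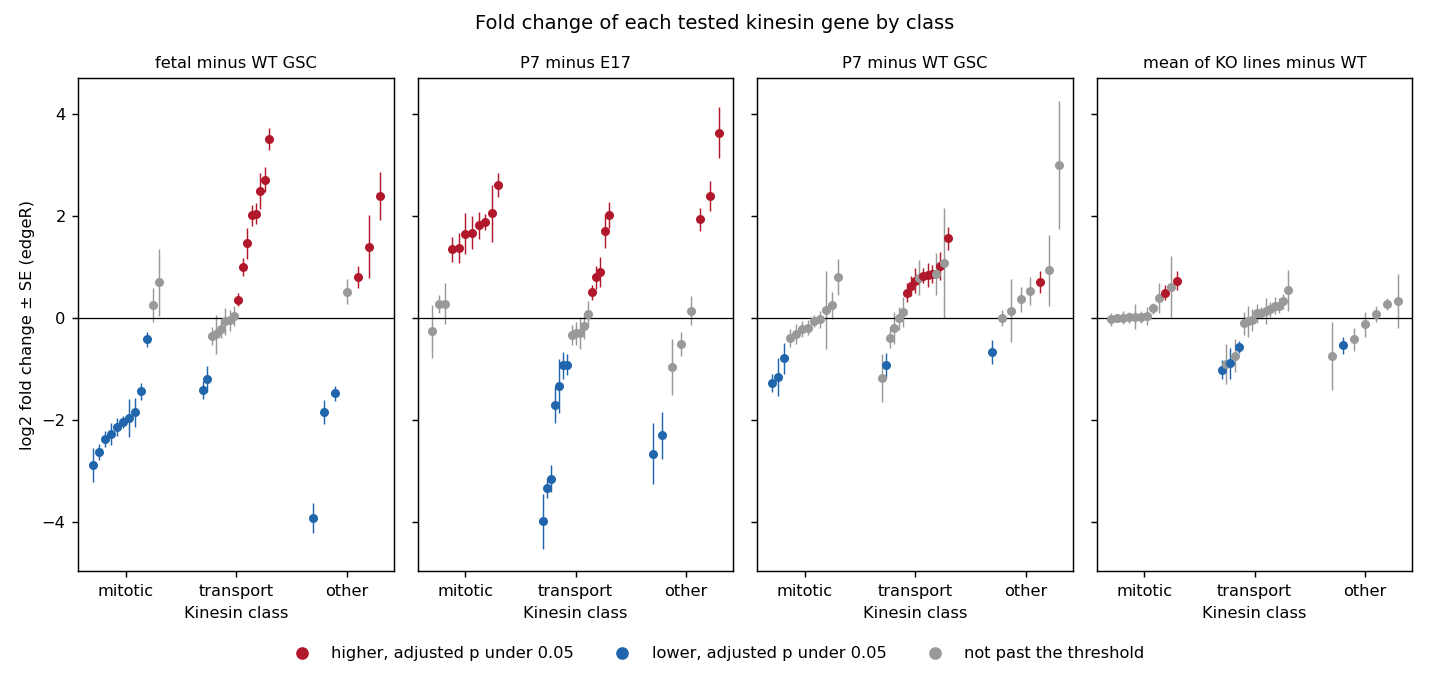
Fitted log2 fold change (edgeR, bars are SE) of each tested kinesin gene by class in 4 comparisons, scaled relative to other genes. Genes with 0 reads on a side, or with 3 or fewer on a side and 10 or more on the other, are not drawn. Kif26b and Kif1a, with fewer than 10 reads on each side at P7 against WT GSCs, are drawn there. In fetal cells against WT GSCs 10 of 12 mitotic genes are lower, and at P7 against E17 8 of 11 are higher. With spike-in totals as size factors all 11 are lower at P7, where 37 of the 14523 genes called are higher. None is then called lower in fetal cells, where 14505 of all 15827 genes tested are higher.

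Among the other kinesins, 6 of 10 rose and 3 fell in fetal cells against WT GSCs, again where 41.9% of all genes were higher and 32.3% lower. Kif24, which acts at centrioles and restrains cilium assembly, was read at 33.5 and 30.6 RPM in WT GSCs, 2.48 and 2.82 RPM at E16, 2.31 and 1.57 RPM at E17, and 22.7 and 21.3 RPM at P7. Its fetal log2 fold change was -3.93 (SE 0.29, adjusted p = 2.14e-14), and it rose by 3.63 (SE 0.50, adjusted p = 1.63e-05) from E17 to P7. Kif26a, which lacks ATPase activity, and Kif2a, a microtubule depolymerase, fell by 1.86 and 1.48 in fetal cells. Kif27, Kif9 and Kif6, which are linked to cilia and flagella, rose by 0.80, 2.39 and 1.397.

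Kif26b was read at 12.4 and 7.39 RPM at E16, 11.6 and 9.42 RPM at E17, 1.97 and 0.928 RPM at P7, and 0 and 0.249 RPM in WT GSCs. With 84 fetal reads and 1 WT read the depth-adjusted ratio was 76.0, with a counting interval of 13.3 to 3037. Kif12 had 42 reads over the fetal libraries and none in any GSC or P7 library, so that it was at least 6.33-fold higher in fetal cells than in WT GSCs, with 3 reads per library as the floor. Kif28 had 61 fetal reads and none in WT GSCs, at least 9.20-fold higher. It had 28 reads at E17 and 2 at P7, a depth-adjusted ratio of 24.1 with a counting interval of 6.09 to 209. Kif28 overlaps Ahctf1. Kif19a, at most 1.94 RPM, was not tested in any comparison.

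From E17 to P7, 3 of the 10 other kinesins tested rose and 4 fell, where 30.2% of all genes were higher and 37.8% lower, so both shares were near those of all genes. Kif26a was read at 11.6 and 14.7 RPM at E17 and 73.7 and 51.3 RPM at P7 (2.40, SE 0.29, adjusted p = 5.53e-06). Kif2a rose by 1.93. Kif9 was read at 14.4 and 24.6 RPM at E17 and 3.95 and 3.09 RPM at P7 (-2.31, SE 0.46, adjusted p = 4.51e-04), and Kif26b changed by -2.67 (SE 0.61). P7 libraries lay outside the E17 range for each of these. Against WT GSCs at P7, Kif26a rose by 0.70 and Kif24 fell, with -0.67 (SE 0.23, adjusted p = 0.0256), a call lost without any 1 of the 4 libraries compared (adjusted p from 0.0531 to 0.143). Between E16 and E17 the kinesin that passed was Kif2a, at 34.3 and 31.0 RPM at E16 and 18.5 and 24.1 RPM at E17 (-0.94, SE 0.24, adjusted p = 0.029). It did not pass with DESeq2 (adjusted p = 0.0677) or without either E17 library (0.33 and 0.109), and its reads may include those of the overlapping Dimt1.

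Of the members that are not motors, Kif1bp was read at 83.9 ± 0.821 RPM (SD, n = 2) in WT GSCs, 115 ± 5.91 RPM at E17 and 74.5 ± 12.7 RPM at P7, and it fell by 0.47 from E17 to P7 (SE 0.17, adjusted p = 0.0212). Kif16bos had at most 0.589 RPM in any library.

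In Stag3 knockout GSCs 2 of the 35 motors tested rose and 4 fell against WT, in the mean of the knockout lines. Both shares were near those of all genes (8.64% higher and 10.6% lower). Of the mitotic genes 2 of 12 rose and none fell in the mean of the knockout lines, where 8.64% of all genes were higher and 10.6% lower. Of the transport genes 3 of 16 fell and none rose, and of the other genes 1 of 7 fell. The summed level of the mitotic class was 714 ± 25.2 RPM in WT, 761 ± 9.84 RPM in KO1 and 814 ± 5.69 RPM in KO2 (SD, n = 2 each), and that of the transport class was 417 ± 3.12, 398 ± 5.47 and 422 ± 0.733 RPM.

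Kif21b (chr1:136131390-136178001) was read at 31.9 and 28.7 RPM in WT, 16.8 and 14.0 RPM in KO1, and 15.1 and 15.8 RPM in KO2. All 4 knockout libraries lay below both WT libraries. Its log2 fold change was -1.02 (SE 0.20, adjusted p = 3.08e-05) for the mean of the lines, -1.02 (SE 0.24) for KO1 and -1.01 (SE 0.23) for KO2, and it passed in each line.

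Kif3a (chr11:53565701-53604248), a ciliary transport motor, was read at 76.5 and 72.0 RPM in WT, 44.4 and 52.4 RPM in KO1, and 53.7 and 56.9 RPM in KO2. Here too no knockout library reached the WT range. The mean of the lines gave -0.57 (SE 0.13, adjusted p = 3.08e-04), KO1 gave -0.67 (SE 0.15, adjusted p = 6.57e-04) and KO2 gave -0.47 (SE 0.15, adjusted p = 0.0157). The KO1 call was lost without KO1 replicate 1 (adjusted p = 0.0555), and the KO2 call was lost with DESeq2 (adjusted p = 0.101), with spike-in totals (0.136), and without WT replicate 1, KO2 replicate 1 or KO2 replicate 2 (0.0788, 0.15 and 0.0768).

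Kif15 (chr9:122951081-123018733) was read at 16.1 and 19.9 RPM in WT, 33.0 and 32.5 RPM in KO1, and 25.1 and 33.3 RPM in KO2. Its log2 fold change was 0.73 (SE 0.19, adjusted p = 0.00282) for the mean, 0.81 (SE 0.22) in KO1 and 0.64 (SE 0.22) in KO2. Kif4 (chrX:100626065-100727271) was read at 37.8 and 39.6 RPM in WT, 58.3 and 48.9 RPM in KO1, and 57.2 and 61.3 RPM in KO2. It rose by 0.49 (SE 0.14, adjusted p = 0.00664) for the mean and by 0.56 (SE 0.16) in KO2. Every knockout library was above both WT libraries for either gene. The call of Kif15 for the mean was lost without WT replicate 1 (adjusted p = 0.0586) and in a fit of all 12 libraries (0.0514), and that of Kif4 was lost with DESeq2 (0.0619) and in that fit (0.0712).

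In KO1 alone Kif15, Kif21b and Kif3a passed, where 6.24% of all genes were higher and 7.40% lower. The KO1 call of Kif15 was lost without KO1 replicate 1 (adjusted p = 0.0517) or WT replicate 1 (0.0544). In KO2 alone Kif15, Kif4, Kif21b, Kif3a and Kif26a passed, where 7.19% were higher and 8.45% lower. The KO2 calls of Kif15, Kif4 and Kif26a were lost without KO2 replicate 2 (adjusted p = 0.415, 0.117 and 0.31), and those of Kif15 and Kif26a also without WT replicate 1 (0.166 and 0.189). With DESeq2 no mitotic kinesin passed in either line alone, and Kif26a did not pass in KO2 (adjusted p = 0.138). None of the 35 motors tested passed between KO1 and KO2 by edgeR, where 0.547% of all genes were higher and 0.286% lower; at an unadjusted p under 0.05, 1 was higher and 1 lower, and DESeq2 called none.

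**Figure D5:**
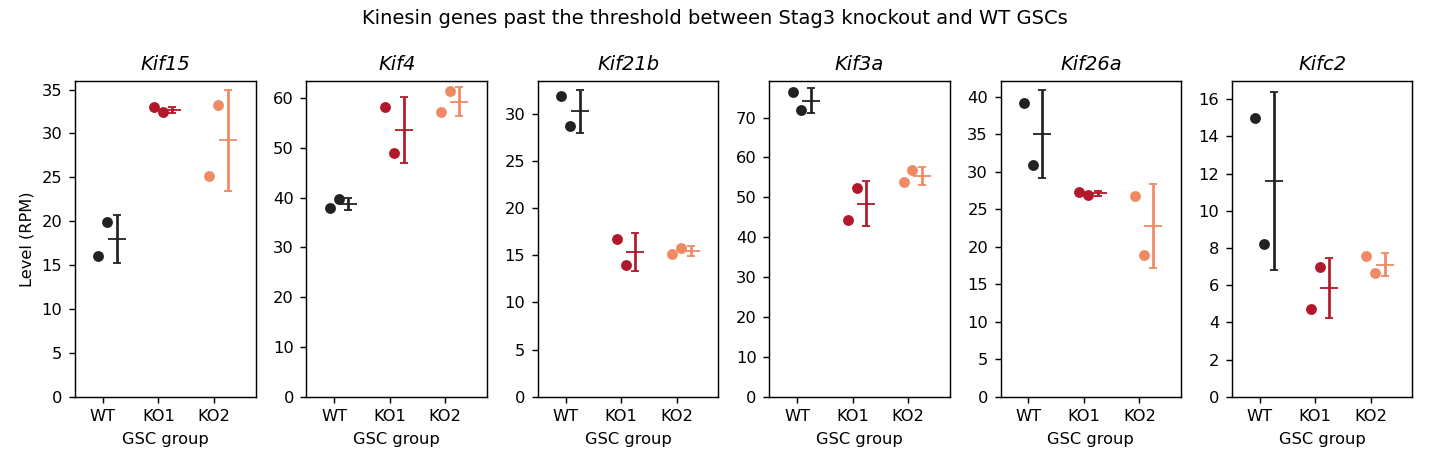
Level in RPM (axis from 0) of the 6 kinesin genes past the threshold for the mean of the knockout lines; points are single libraries and bars are mean ± SD of the 2 libraries of a group. For Kif21b and Kif3a all 4 knockout libraries lie below both WT libraries, and for Kif15 and Kif4 all lie above.

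Kif26a was read at 39.2 and 30.9 RPM in WT, 27.4 and 26.9 RPM in KO1, and 26.7 and 18.9 RPM in KO2, with a log2 fold change of -0.54 (SE 0.17, adjusted p = 0.017). Kifc2 was read at 15.0 and 8.22 RPM in WT, 4.71 and 6.98 RPM in KO1, and 7.56 and 6.66 RPM in KO2, with -0.89 (SE 0.31, adjusted p = 0.0302). Both calls rest on WT replicate 1: without it Kif26a was at -0.35 (adjusted p = 0.303) and Kifc2 at -0.39 (adjusted p = 0.598). Neither passed with DESeq2 (0.138 and 0.191). Kifc2 also lost its call without KO1 replicate 1 or KO2 replicate 2 (0.113 and 0.0676), and Kif26a without KO2 replicate 2 (0.106).

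Kif11, Kif20a, Kif23 and Kif2c did not pass in the knockouts. Kif11 was read at 95.0 and 103 RPM in KO1 and 90.7 and 93.8 RPM in KO2, with a log2 fold change of 0.01 (SE 0.11). Kif20a was read at 209 and 214 RPM in KO1 and 243 and 212 RPM in KO2, with 0.00 (SE 0.08). Kif23 was read at 67.4 and 75.1 RPM in KO1 and 73.7 and 78.5 RPM in KO2, with 0.02 (SE 0.12). Kif2c was read at 63.0 and 73.3 RPM in KO1 and 74.8 and 80.5 RPM in KO2, with 0.00 (SE 0.12). For each of them the knockout libraries overlapped the WT range.

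Of the 32 mitotic partners, 11 rose and none fell in the mean of the knockout lines, where 8.64% of all genes were higher and 10.6% lower, with a median log2 fold change of 0.14. By line, 5 rose in KO1, where 6.24% of all genes were higher, and 12 in KO2, where 7.19% were. Mki67, the proliferation marker, rose from 120 to 201 RPM (0.69, SE 0.09, adjusted p = 7.57e-10). Birc5 rose from 91.7 to 139 RPM (0.55, SE 0.10) and Nuf2, a kinetochore subunit, from 66.1 to 94.3 RPM (0.46, SE 0.12). The number that rose was 6 with DESeq2, where 452 of all 11890 genes tested were higher. It was 5 with spike-in totals (569 of 11890 genes higher) and 4 in a fit of all 12 libraries (448 of 15827). Fewer partners also rose without WT replicate 2 or without either KO2 replicate, and fewer of all genes rose as well. Of the 17 transport partners tested 1 rose, Mapk8ip3 (0.57, SE 0.13), and 1 fell, Dctn3 (-0.48, SE 0.12). Of all 11890 genes tested, 5982 had a fitted log2 fold change above 0 in the knockout mean. Summed fibroblast markers were 33.9 to 48.6 RPM in the 4 knockout libraries and 87.9 to 88.0 RPM in WT, with 5 of 7 lower in the knockout mean. Summed Sertoli markers were 41.0 to 61.2 RPM in the knockout libraries and 27.5 to 33.4 RPM in WT, with 6 of 10 higher, 2 lower, and Amh and Fshr at 0 in every GSC library. Summed macrophage markers were 1.77 to 4.05 RPM against 0.817 to 0.997 RPM, with 2 of 6 higher and Csf1r, Adgre1, C1qa and C1qb at 0 in every GSC library. Summed peritubular markers were 12.7 and 12.2 RPM in KO1, 4.05 and 3.33 RPM in KO2, and 9.53 and 5.98 RPM in WT. The KO1 libraries thus lay above the WT libraries and the KO2 libraries below them. For the neuron, endothelial and Leydig lists the knockout and WT ranges overlapped, and erythroid markers were at 0. The part of the lists that differed in the knockout differences was not tested.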

How the data were processed

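Polyadenylated RNA was measured by SC3-seq in 12 libraries. The authors deposited, per library, a table of whole read counts per gene; the submitters' processing notes name GRCm38.p6 and the tools Salmon 1.4.0, HTSeq 0.9.1, TopHat2 2.1.1 and cutadapt 1.18, without their roles or the use of strand. Genes without a count (10, or 214 at P7), spike-ins and mitochondrial genes were left out of library sizes; P7 tables hold no mitochondrial counts. RPM were computed from the deposited counts. Genes were matched to P7 by Entrez ID. Replicate numbers follow the sample titles; for the WT GSC libraries these are the reverse of the numbers in the names of the deposited tables.

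Counts were tested with edgeR 4.0.16 (TMM, filterByExpr by group, glmQLFit, Benjamini-Hochberg adjustment over all genes tested) in fits of the 6 GSC libraries, the 6 in vivo libraries, or all 12 for comparisons across them; the procedure was tested on simulated data. Fitted fold changes differ from RPM ratios by a scaling of up to 0.33 on the log2 scale (median over members), with no called member of opposite sign. Alternatives were DESeq2 1.42.0, spike-in totals as size factors, no filter, a replicate block, other sets of libraries, and leaving out each library. Total counts of 1938644 to 4596607 and 2 libraries per group limit the precision; reads without molecular identifiers make counting intervals and floors cover counting error only, and the intervals are exact binomial ones at 95%. Replicates differed by more than sampling noise in every group. Values in every library are given for Kif11, Kif20a, Kif23 and Kif2c and, per comparison, for up to 5 members that rose and 5 that fell most at 10 RPM or more, and of each partner list up to 3 in each direction are named. The members, classes and lists were chosen with earlier results of these data known. Gene positions and overlaps come from RefSeq (GRCm38.p6).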

Additional observations from a re-analysis of the deposited data

How the results depend on the processing

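Of 50 gene differences that passed the threshold among the genes followed by name, 31 passed under every alternative other than spike-in totals, and 17 passed under those too; none of the 50 changed sign outside spike-in totals. Spike-in totals turned the sign of Kif11, Kif2a, Kif23 and Kif2c at E17 against E16 (2.66, 2.05, 2.85 and 2.86), of Kif24, Kif11, Kif5b, Kif20a, Kif15, Kif26a, Kif23 and Kif2c at P7 against E17 (-1.02, -2.07, -2.67, -2.80, -2.63, -2.29, -4.41 and -2.84), and of Kif22, Kif4, Kif20a, Kif23 and Kif2c in fetal cells against WT GSCs (0.24, 0.36, 0.59, 2.21 and 0.49). They moved the median of all genes by construction, to 3.02 at E17 against E16, where 14506 of all 14776 genes tested were called higher. There 11 mitotic and 17 transport kinesins were then higher. At P7 against E17, 0 mitotic kinesins were then higher and 11 lower, and 0 transport kinesins higher and 17 lower. Of the 14776 genes, 14523 were called there, 37 of them higher. In fetal cells 6 mitotic kinesins were higher and 0 lower, and 17 transport kinesins higher and 0 lower, where 14505 of 15827 genes were higher. At P7 against WT GSCs, where the median of all genes was -0.42, 8 mitotic kinesins were lower, 1 transport kinesin higher and 3 lower. Of all genes 5618 were called there, 909 of them higher. In KO2, 1 transport kinesin was lower with spike-in totals, where 1191 of 11890 genes were called, 696 of them higher. With DESeq2 1 was lower as well, where 864 genes were called, 359 of them higher.

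Mitotic kinesins higher in the knockouts numbered 1 with DESeq2 and 0 in the fit of all 12 libraries for the mean. They numbered 0 under both for KO1 and for KO2. Of all genes tested, 452 of 11890 were higher in the mean with DESeq2 and 448 of 15827 in the fit of all 12 libraries. Without the filter or in the fit of all 12 libraries, 1 mitotic kinesin was higher at E17 than at E16. At P7 against WT GSCs, 2 transport kinesins were lower without the filter or in a fit of only the groups compared, which also gave 1 mitotic kinesin higher. The causes of these changes were not tested.

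Leaving out each library gave 1 to 2 mitotic kinesins higher in the mean of the knockouts, 0 to 1 in KO1 and 0 to 2 in KO2, and 1 to 3 transport kinesins lower in KO1 and in KO2. At E17 against E16 it gave 0 to 2 mitotic kinesins higher, 0 to 2 transport kinesins higher and 0 to 2 lower. At P7 against E17 it gave 3 to 4 transport kinesins higher. At P7 against WT GSCs it gave 1 to 3 mitotic kinesins lower, 4 to 5 transport kinesins higher and 0 to 2 lower. Where 1 library was left in a group, it was assumed to vary like the others. The number of all genes called also changed with each library left out. These counts can therefore not be set against the shares given for all libraries.

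The labels number replicates alike across groups, but no same-numbered pair of groups deviated together above 0.1 (correlations of -0.144 to 0.0834), so the numbers were not used as pairs. With the replicate number as a block, 2 transport kinesins were lower at P7 against WT GSCs in place of 1, and the other 31 counts by class stayed within 1.5 times. With the WT GSC numbers of the deposited tables' names, which are reversed, WT GSCs correlated at 0.144 with E16 and 0.137 with P7 and every other pair under 0.1; a block on these numbers, chosen after seeing the data, also gave 2 transport kinesins lower at P7 against WT GSCs, and the other 23 counts stayed within 1.5 times.

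Levels near 1 RPM, as for Kif2b, Kif19a and Kifc1, are limited by depth.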
